A study of Mus musculus with 4 samples.

Results

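The genes described here are 52 mouse genes of ribosome biogenesis and of the growth programme that the transcription factor MYC drives. They were chosen by symbol, from a list that uses no measured value but was chosen with earlier results of these data known. All 52 were found, each once, among the 56941 features of the files. They comprise 14 genes of rRNA transcription, small nucleolar ribonucleoproteins and the small subunit, 13 of the large subunit, 3 of RNA processing and modification, 5 mitochondrial genes, 9 of polyamine and nucleotide metabolism or transport, and 8 of translation, nuclear transport and other roles. Their transcripts were counted as unique molecular identifiers (UMIs) by poly-dT-primed droplet sequencing of mouse bone marrow cells in 4 libraries, 1 library per group. The groups are WT c-Kit+ and KO c-Kit+ cells, bone marrow labelled by the Kit receptor that marks blood stem and progenitor cells, and WT MLL-AF9 and KO MLL-AF9 cells, named for the fusion oncogene that drives an acute myeloid leukaemia. The series title names RBM5, a splicing regulator, as the gene under study. The strain, age and sex of the mice, the deleted part of the gene, the driver of the deletion, the number of animals per library and any treatment are not given in the sources used here.

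Ribosomes are assembled in the nucleolus. RNA polymerase I transcribes the precursor rRNA, small nucleolar ribonucleoproteins guide its modification, and processome and pre-60S factors cut and fold it into the small and large subunits. MYC binds the sequence CACGTG, the E-box, together with its partner MAX, and is known to raise the transcription of many of these genes and of genes that supply polyamines and nucleotides. In bone marrow the programme is known to be high in dividing progenitors and low in mature neutrophils.

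Promoter sequence was looked up to see which members carry the E-box letters close to their start. In RefSeq windows of 300 bases on GRCm38.p6, from 250 bases before to 50 after each annotated start, 47 of the 52 members had an entry, and Fbl, Npm1, Srm, Rrp12 and Tcof1 did not. CACGTG, which reads the same on both strands, was in the window of 14 of these 47 members (29.8%), against 8.09% of all 27025 genes with an entry and 12.4% of the 7758 genes averaging at least 5 CPM, counts per 1e+06 UMIs. CACGCG, a related sequence searched on both strands that shares no whole copy with the E-box, was in that of 16 members (34.0%), against 10.5% of all genes and 20.8% of those at 5 CPM or more. The list was assembled as a MYC-linked one, so these shares describe it. The 150 bases before the RefSeq start are printed for 5 members that hold CACGTG there and for Odc1, which does not hold it there. Odc1 was picked after its values were seen, because its leukaemia levels ran opposite to those of most members. Bases outside the windows were not searched, so a gene without CACGTG here may hold it elsewhere. Capitals mark CACGTG and CACGCG or its complement CGCGTG. The windows are Prmt3 (chr7:49778208-49778357, plus strand), Exosc5 (chr7:25659003-25659152, plus strand), Nop2 (chr6:125131733-125131882, plus strand), Imp4 (chr1:34439679-34439828, plus strand), Ran (chr5:129020006-129020155, plus strand) and Odc1 (chr12:17544723-17544872, plus strand), each 5′ to 3′.
Prmt3: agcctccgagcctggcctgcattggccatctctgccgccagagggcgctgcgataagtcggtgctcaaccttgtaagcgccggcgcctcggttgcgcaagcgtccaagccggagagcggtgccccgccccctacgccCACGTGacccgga
Exosc5: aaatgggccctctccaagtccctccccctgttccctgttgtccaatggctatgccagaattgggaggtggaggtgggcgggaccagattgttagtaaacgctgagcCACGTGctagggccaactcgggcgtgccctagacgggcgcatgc
Nop2: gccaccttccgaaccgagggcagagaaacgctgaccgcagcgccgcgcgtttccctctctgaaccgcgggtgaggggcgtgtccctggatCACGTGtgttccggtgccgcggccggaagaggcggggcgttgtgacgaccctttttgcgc
Imp4: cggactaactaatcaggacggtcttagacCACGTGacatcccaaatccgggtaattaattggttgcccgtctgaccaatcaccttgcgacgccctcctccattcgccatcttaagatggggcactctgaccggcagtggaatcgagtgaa
Ran: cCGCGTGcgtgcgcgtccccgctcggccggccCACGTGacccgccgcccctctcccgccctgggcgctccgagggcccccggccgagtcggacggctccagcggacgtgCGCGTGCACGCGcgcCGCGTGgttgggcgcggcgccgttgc
Odc1: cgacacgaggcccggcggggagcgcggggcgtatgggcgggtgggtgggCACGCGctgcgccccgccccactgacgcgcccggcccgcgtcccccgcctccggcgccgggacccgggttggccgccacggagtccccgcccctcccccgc
The E-box began 13 bases before the RefSeq start in Prmt3, 44 in Exosc5, 60 in Nop2, 118 in Ran and 121 in Imp4. GENCODE M21, used below for gene positions, starts Prmt3 at 49778346, Ran at 129020069 and Odc1 at 17544794, inside the printed windows. Part of those bases therefore lies within the gene by that annotation. The 14 members with CACGTG had a median log2 ratio of -0.58 in the KO over the WT MLL-AF9 library, and the 33 without it had one of -0.50. A letter match is a description and not a binding site.

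After filtering, 12948 WT and 13708 KO cells of the c-Kit+ libraries and 13177 WT and 11778 KO cells of the MLL-AF9 libraries were kept, with 93004538 to 101255178 UMIs per library and medians of 5352 to 7420.5 UMIs per cell. Rbm5 itself was at 75.5 CPM in WT and 89.6 in KO cells of the c-Kit+ libraries, and at 160 and 116 in those of MLL-AF9. Its transcript was therefore counted in both libraries labelled KO, and since 3′ tags outside a deleted part check nothing, the groups are called by their labels throughout. The c-Kit+ libraries were mixed by markers: 49.8% of WT and 46.5% of KO cells fell in the secondary granule range of neutrophil development and 1.76% and 2.03% in the progenitor range. A Kit UMI was seen in 17.3% and 18.1% of all c-Kit+ cells and in 82.5% and 80.2% of those in the progenitor range (medians of 7946 and 8477.5 UMIs). In late neutrophil cells, taken as background, it was 3.54% and 2.5% (medians of 2439.5 and 2350.5 UMIs). A cell without a Kit UMI may still express the gene. The MLL-AF9 libraries were mixed too: 28.9% of WT and 55.8% of KO cells fell in the secondary granule range and 22.3% and 13.6% in no range. Erythroid (77 and 217 cells), B lineage (101 and 21) and T or NK ranges (175 and 118) were also present. No transcript of the fusion was used to pick cells, so leukaemia below names all cells of these libraries. Library pairs shared 44 to 69 cell barcodes of 12762 to 14577. With 1 library per group no comparison below has a test, and the 95% intervals cover counting error only. A sum over a whole library mixes the make-up of the library with the level per cell, which the comparisons by stage separate only as far as the marker ranges do.

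Summed over the 52 members, the level was 4844 CPM in the WT and 5163 in the KO c-Kit+ library, and 3305 in the WT and 2566 in the KO MLL-AF9 library. Both c-Kit+ libraries stood above both MLL-AF9 libraries, and the lowest was the KO MLL-AF9 library. Myc followed another order, at 27.2, 26.5, 25.7 and 13.1 CPM, with only the KO MLL-AF9 library apart. Cells that passed a floor for cell cycle transcripts made up 44.2%, 48.2%, 31.3% and 19.4% of the libraries, ribosomal protein genes took 12.2%, 13.3%, 11.3% and 9.43% of the UMIs, and the part of either in the members' levels was not tested in these sums.

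Among the genes of rRNA modification and the small subunit, Ncl, which encodes the nucleolar protein nucleolin, was at 504 CPM in WT and 562 in KO c-Kit+ cells, and at 318 in WT and 257 in KO MLL-AF9 cells, the order used from here on. Fbl, the rRNA methyltransferase fibrillarin, was at 109, 107, 78.9 and 52.6 CPM. Nop56, a core protein of the same box C/D particles, was at 34.1, 35.8, 32.2 and 23.5 CPM, a narrower range than that of Fbl. Nolc1, a nucleolar chaperone of these particles, was at 66.2, 68.0, 41.9 and 28.1 CPM. In all 4 genes the KO MLL-AF9 library was the lowest.

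Of the large subunit genes, Npm1, the nucleolar chaperone nucleophosmin, was at 1008, 1141, 527 and 409 CPM. Gnl3, which encodes nucleostemin, a nucleolar GTPase of pre-60S assembly, was at 74.3, 76.6, 25.1 and 17.0 CPM, so that both leukaemia libraries lay far below both c-Kit+ libraries. Pes1, a pre-60S factor of the PeBoW complex, was at 27.0, 26.7, 30.1 and 22.1 CPM. It belonged to the few members whose WT MLL-AF9 level was not below the c-Kit+ levels.

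The metabolic members did not share one order. Odc1, ornithine decarboxylase, the first enzyme of polyamine synthesis, was at 84.8, 84.8, 48.0 and 148 CPM, lowest in WT and highest in KO leukaemia. Srm, spermidine synthase, which acts on the product of Odc1, was at 58.6, 63.6, 21.7 and 9.43 CPM, the opposite order in leukaemia. Cad, the enzyme that starts pyrimidine synthesis, was at 15.4, 15.95, 6.86 and 2.36 CPM. In the remaining roles, Prmt3, an arginine methyltransferase that acts on a small subunit protein, was at 24.8, 24.2, 32.6 and 12.4 CPM, highest in WT leukaemia. Ran, the GTPase of nuclear transport, was at 839, 894, 542 and 331 CPM. Eif4a1, the helicase of translation initiation, was at 345, 334, 451 and 511 CPM, higher in both leukaemia libraries than in either c-Kit+ library.

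**Figure D1:**
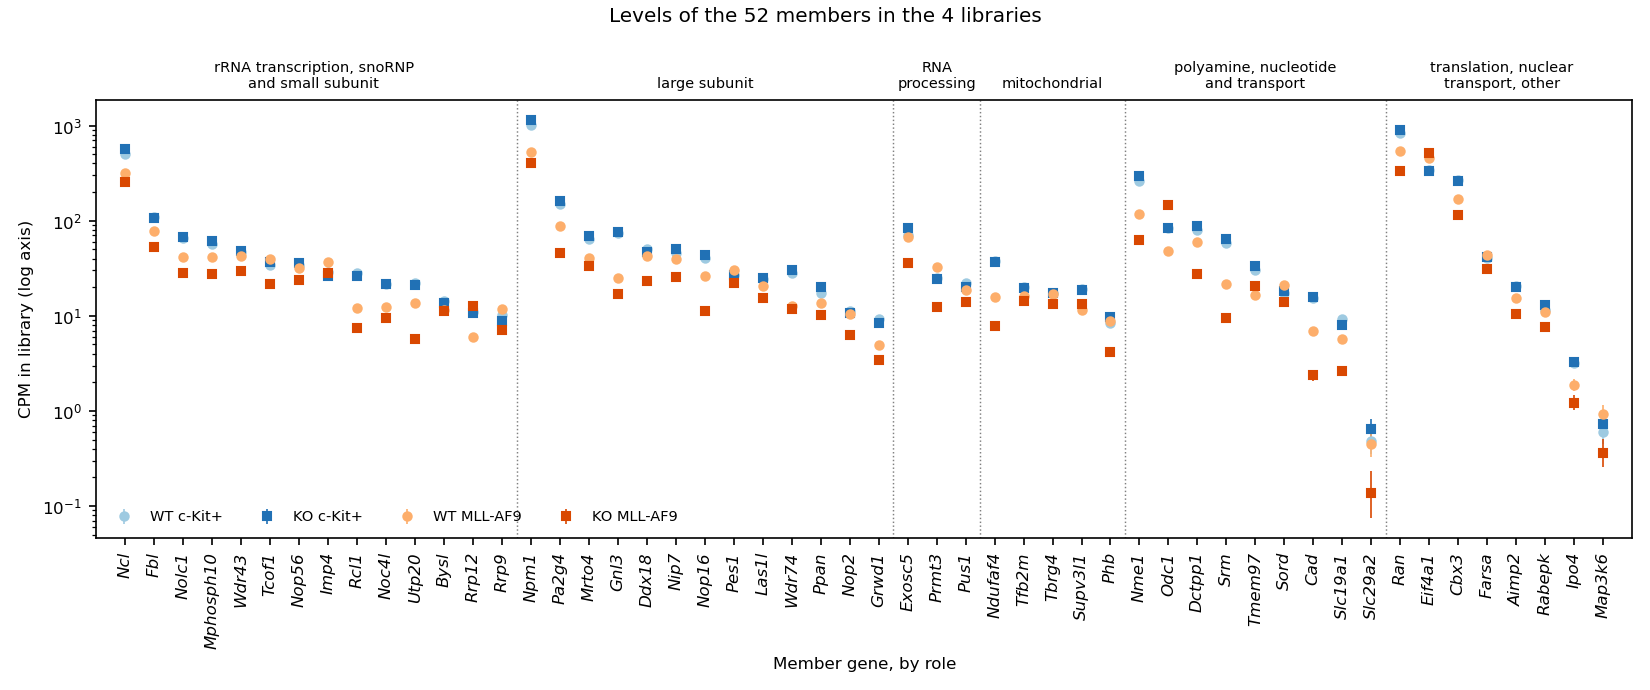
CPM (log axis) of each of the 52 members, grouped by role, in the 4 libraries, 1 point per library, with exact Poisson 95% intervals of the UMI sums. The KO MLL-AF9 point is the lowest of the 4 for 46 of the 52 members, at any level. It is the highest for Odc1, Rrp12 and Eif4a1, at 148 CPM against 48.0 in WT MLL-AF9 for Odc1. This order was not counted over all features, of which 74.6% at 5 CPM or more were lower in KO than in WT MLL-AF9 cells.

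Some of these counts are less certain than their intervals. Exons of 9 members overlap another annotated gene on the same strand, among them Gnl3, Nop56 and Ncl, whose introns or exons hold small nucleolar RNAs, and Nme1, which shares exons with the joint transcript Gm20390. The annotation holds 8 pseudogenes named after Cbx3 and 2 named after Mrto4, which can share reads with them. Ratios between libraries rest on the same counting in each.

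In leukaemia, the library labelled KO held less of most members than the library labelled WT. Of the 46 members averaging at least 5 CPM over both libraries, 41 were lower in the KO library, against 74.6% of all 9901 features at that level, and 17 were lower by more than 1.5-fold, against 35.1% of all features. The median log2 ratio was -0.53 for the members and -0.38 for all features, and 31 of the 46 members lay below that median. With median-ratio size factors, which bring the median of all features to -0.04, 36 members were lower (background 53.6%) and 8 were lower by more than 1.5-fold (15.9%), with a member median of -0.19. Ncl, Mrto4, Tfb2m, Wdr74 and Bysl stood on opposite sides of 0 under the 2 scalings. Averaging stage levels with equal stage weights gave 32 of 47 members lower (69.0% of all features), 5 of them by more than 1.5-fold (25.6%), with a member median of -0.22 against -0.26 for all features. Without cycling cells the medians were -0.41 and -0.39. Under these 2 settings the members were therefore near the shift of all features. The 6 members not counted here for their low level were Cad, Slc19a1, Map3k6, Grwd1, Ipo4 and Slc29a2. Each of these was also lower in the KO library, from 6.86 to 2.36 CPM for Cad and from 5.66 to 2.64 for Slc19a1, a folate carrier.

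The lowest ratios came from several steps of the pathway. Prmt3 (chr7:49778346-49858265, plus strand, GRCm38) went from 32.6 CPM in WT to 12.4 in KO leukaemia, a log2 ratio of -1.33 and a ratio of 0.379 (95% interval 0.355 to 0.405). Nop16, a pre-60S protein, had 26.5 and 11.4 CPM (log2 ratio -1.15), and Utp20, a large scaffold of the small subunit processome, had 13.8 and 5.73 CPM (-1.13). Srm, on the polyamine route, had 21.7 and 9.43 CPM (-1.12). Dctpp1, a pyrophosphatase that clears modified nucleotides, had 59.8 and 27.8 CPM (-1.08), and Pa2g4, an ErbB3-binding growth regulator found on pre-ribosomes, had 88.0 and 45.3 CPM (-0.94). All 6 stayed below the shift of all features under both scalings.

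The other end of the list was short. Odc1 (chr12:17544794-17551505, plus strand, GRCm38) had 3.08 times the level in the KO library (95% interval 2.98 to 3.19), a log2 ratio of 1.60, or 1.95 with size factors. Rrp12, which takes part in pre-ribosome export, went from 6.03 to 12.6 CPM, a log2 ratio of 0.95. Tmem97, a sterol-regulated membrane protein, had a log2 ratio of 0.32, Supv3l1, a mitochondrial RNA helicase, 0.20, and Eif4a1 0.18. Bysl, a small subunit factor, had 11.4 CPM in both libraries. Only Odc1 and Rrp12 were higher by more than 1.5-fold, against 9.49% of all features.

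By role, with 74.6% of all features lower, 13 of 14 tested members of rRNA transcription, small nucleolar ribonucleoproteins and the small subunit were lower in the KO leukaemia library (median log2 ratio -0.53), as were 12 of 12 of the large subunit (-0.48). The count was 3 of 3 for RNA processing and modification (-0.86), 4 of 5 for the mitochondrial genes (-0.35), 4 of 6 for the metabolic genes (-0.73) and 5 of 6 for translation and nuclear transport (-0.51). With size factors, where 53.6% of all features were lower, these counts were 11, 10, 3, 3, 4 and 5. The mitochondrial and metabolic shares are near or below that of all features. Mphosph10 (-0.58), Wdr43 (-0.50) and Noc4l (-0.37) of the small subunit processome, Nip7 (-0.62) and Las1l (-0.42) of the large subunit, the tRNA synthetase components Aimp2 (-0.52) and Farsa (-0.49), and Rabepk (-0.47) lay in the middle of the list. The metabolic group thus held both the largest positive ratio, of Odc1, and some of the lowest.

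**Figure D2:**
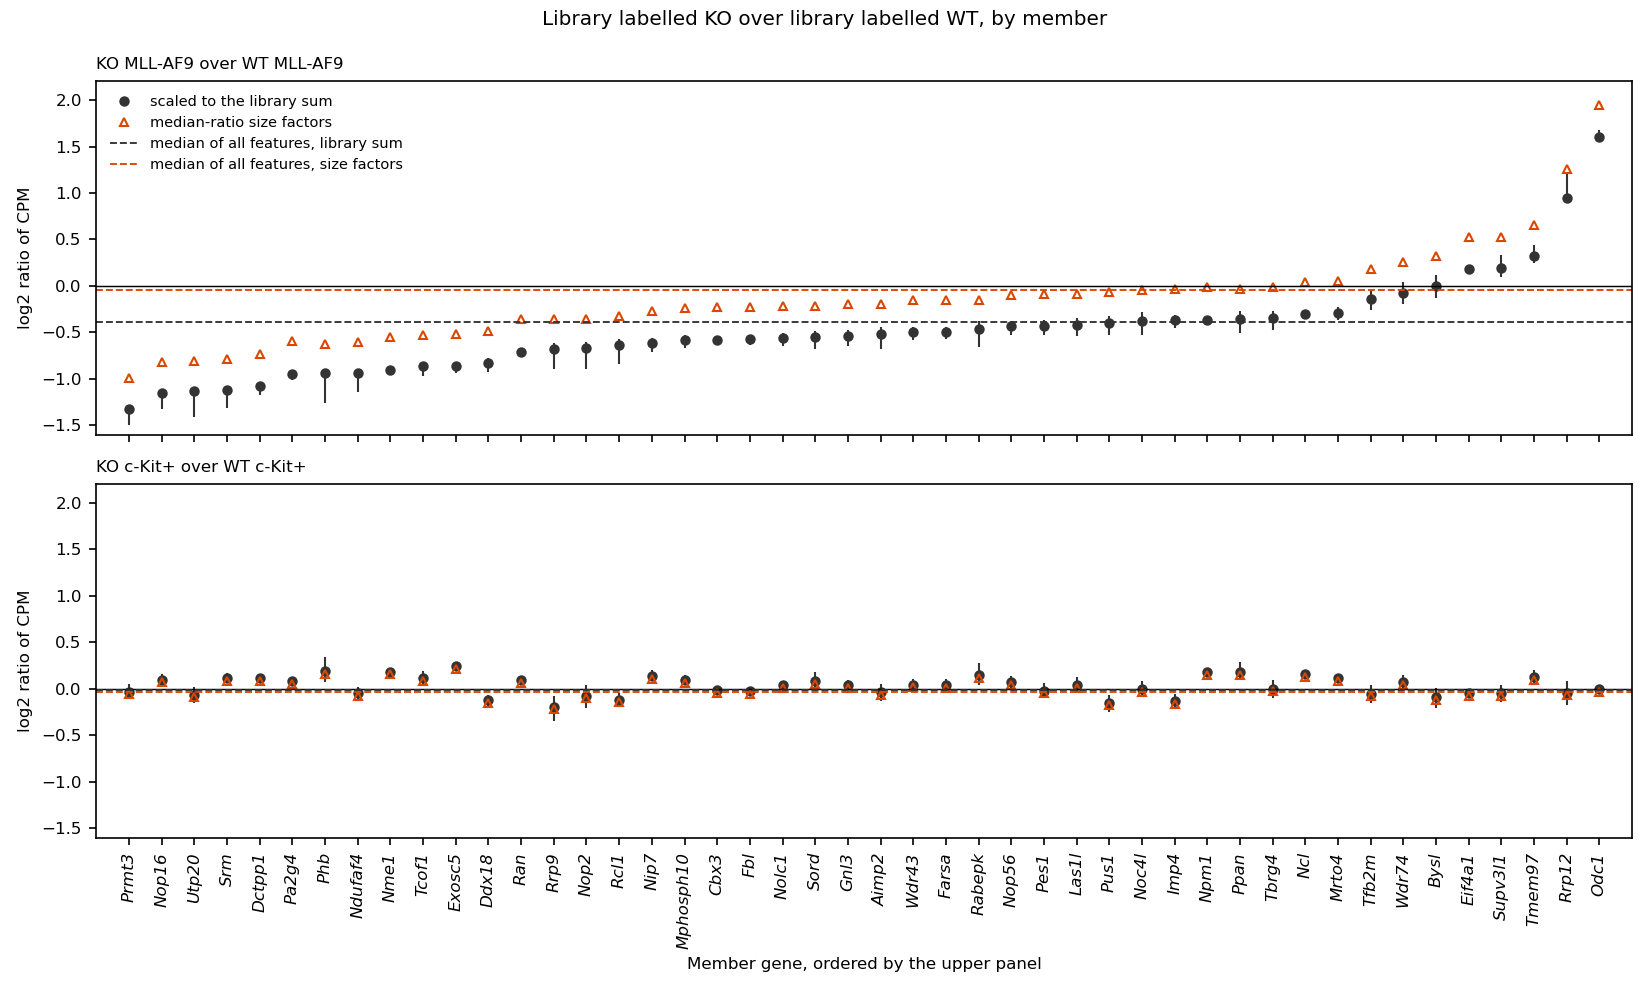
log2 ratio of CPM of the library labelled KO over the library labelled WT for the 46 members tested in leukaemia, in MLL-AF9 (upper panel) and c-Kit+ cells (lower panel). Circles are scaled to the library sum, triangles by median-ratio size factors, vertical lines are 95% intervals of the ratio taken without the pseudocount, and dashed lines are the medians of all features (-0.38 and -0.04 above). Members span -1.33 to 1.60 in MLL-AF9 and stay within 0.25 of 0 in c-Kit+ cells.

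In c-Kit+ cells the same 2 labels gave nearly equal levels. Of 49 members at 5 CPM or more, 21 were lower in the KO library, against 52.4% of all features, and none differed by more than 1.5-fold in either direction, against 0.199% of all features lower and 0.262% higher. The median log2 ratio was 0.04, and that of all features -0.01. Exosc5, a subunit of the RNA exosome, had the highest ratio (71.2 and 84.4 CPM, 0.24), followed by Phb (0.19), Nme1 (0.19), Ppan (0.18), Npm1 (0.18) and Ncl (0.16). The lowest were Slc19a1 (-0.20), Rrp9 (-0.19), Pus1 (-0.15), Imp4 (-0.13), Ddx18 (-0.13) and Rcl1 (-0.12). The direction of the count was not stable: 6 of 47 members were lower when each cell had equal weight (38.8% of all features), 8 of 46 with cycling cells left out (39.2%), and 32 of 49 when the stages had equal weight (52.1%).

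Leukaemia was also set against c-Kit+ cells, within the WT and within the KO libraries. The 2 comparisons use the same libraries as those above and are given side by side. In WT, 40 of 49 members were lower in the MLL-AF9 library, against 33.4% of all features, and 23 were lower and none higher by more than 1.5-fold (11.1% and 33%), with a median log2 ratio of -0.44 against 0.28 for all features. In KO, 45 of 49 were lower (52.1%), 36 by more than 1.5-fold (25%), with a median of -0.95 against -0.04. With size factors the WT count was 47 of 49 (53%) and its median -0.79.

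In WT the lowest ratios were those of Gnl3 (-1.53), Srm (-1.39), Ndufaf4, a complex I assembly factor (-1.20), Rcl1, a processome protein (-1.15), Nme1, a nucleoside diphosphate kinase (-1.13) and Wdr74 (-1.12). The highest were Eif4a1 (0.39), Prmt3 (0.38), Imp4 (0.34), Sord (0.29), Tcof1 (0.23) and Rrp9 (0.19), of which Imp4, Sord, Tcof1 and Rrp9 turned to 0 or below with size factors. In KO the lowest were Srm (-2.63), Cad (-2.33), Nme1 (-2.22), Gnl3 (-2.11), Ndufaf4 (-2.09) and Nop16 (-1.85), and the highest Odc1 (0.80), Eif4a1 (0.61), Rrp12 (0.22), Imp4 (0.11), Bysl (-0.23) and Pes1 (-0.26). Srm, Gnl3, Nme1 and Ndufaf4 were among the lowest in both. In WT, 26 of 47 were lower with equal weight per cell (28.9% of all features; member median -0.13 against 0.36). With cycling cells left out 19 of 46 were lower (24.6%), and the member median turned to 0.16 against 0.44. The WT count past 1.5-fold was 8 (9.94%) and 4 (9.85%) under these settings and 10 of 48 with cells thinned to 2000 UMIs (9.35%). In KO that count was 16 of 45 with cycling cells left out (19.1%).

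Cells were then assigned to stages by the level of marker genes, each stage being a range of marker level and not a type. Cells close to the marker floor numbered 3 of 1421 in the primary granule range of WT c-Kit+ cells and 214 of 2497 in that of WT MLL-AF9 cells. Primary granule cells of the WT c-Kit+ library had a median of 41428 CPM of the primary granule genes Mpo, Elane, Prtn3, Ctsg and Ms4a3, and 909 CPM of secondary granule genes. In WT MLL-AF9 cells these medians were 13052 and 602 CPM, so that the same range held cells with less granule RNA in leukaemia.

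The members were high in early and erythroid cells and low in neutrophils. In WT c-Kit+ cells their sum was 10805 CPM in erythroid, 8332 in primary granule, 7644 in progenitor, 6797 in monocytic, 5042 in B lineage, 1697 in secondary granule and 798 in late neutrophil cells. Along the neutrophil series of all 4 libraries, every tested member was lower in late neutrophil than in primary granule cells: 49 of 49 in WT c-Kit+, 49 of 49 in KO c-Kit+, 48 of 48 in WT MLL-AF9 and 45 of 45 in KO MLL-AF9, against 65.7%, 65.2%, 66.7% and 68% of all features. The primary granule sum was 10.4, 11.5, 6.82 and 4.75 times the late neutrophil sum. Npm1 went from 1588 to 159 CPM in WT c-Kit+ cells and from 710 to 75.3 CPM in KO MLL-AF9 cells. In WT c-Kit+ cells the log2 ratio was lowest for Tmem97 (-4.41), Ndufaf4 (-4.31) and Srm (-4.19), and nearest 0 for Tbrg4, a mitochondrial RNA-binding protein (-1.503), Supv3l1 (-1.53) and Rrp12 (-1.67). Late neutrophil cells had 0.563% to 1.64% cycling cells, against 26.2% to 87.7% of primary granule cells. With the cycling cells left out 187 of 187 member and library pairs were lower, and the share of all features was not counted there. The 5 CPM floor is on the mean of both stages, so members can pass it through the primary granule level alone. Rrp9, for example, had 17.0 and 0.293 CPM in WT c-Kit+ cells.

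At the primary granule stage the sum was 8332 CPM in WT c-Kit+ and 9315 in KO c-Kit+ cells but 4857 in WT MLL-AF9 and 3912 in KO MLL-AF9 cells. Monocytic cells had the same order by tissue, at 6797, 7118, 3138 and 3271 CPM. Of these cells 44.2%, 44.4%, 24.6% and 25.4% were cycling. In cells below the cell cycle floor the monocytic sums were nearer each other, at 3161, 3058, 2320 and 2636 CPM. The primary granule sums in such cells were 8094, 9670, 3684 and 3310 CPM. At the secondary granule stage the sums were 1697, 1788, 2405 and 1992 CPM, higher in leukaemia, and Myc there was at 4.59, 3.78, 16.8 and 7.05 CPM. All features shifted the same way at that stage: 3 of 43 members were lower in WT leukaemia (17.3%; median 0.70 against 0.57) and 13 of 40 in KO (30.9%; 0.34 against 0.31). With size factors 19 of 43 (53%) and 20 of 40 (52.8%) were lower, with medians of 0.10 and -0.01, so the higher sum was not seen beyond that shift. In the progenitor range, WT c-Kit+ cells had 7644 CPM of the members and 138 of Myc, and the 117 WT MLL-AF9 cells had 2876 and 28.9. Cycling cells made up 43.4% and 16.2% of these 2 ranges, and their part in the difference was not tested. Srm was the lowest member at the primary granule stage of leukaemia against c-Kit+ cells, at 156, 176, 42.9 and 21.8 CPM in the 4 libraries. Prmt3 was at 30.8, 30.8, 43.6 and 23.9 CPM there, above the c-Kit+ level in WT leukaemia alone.

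**Figure D3:**
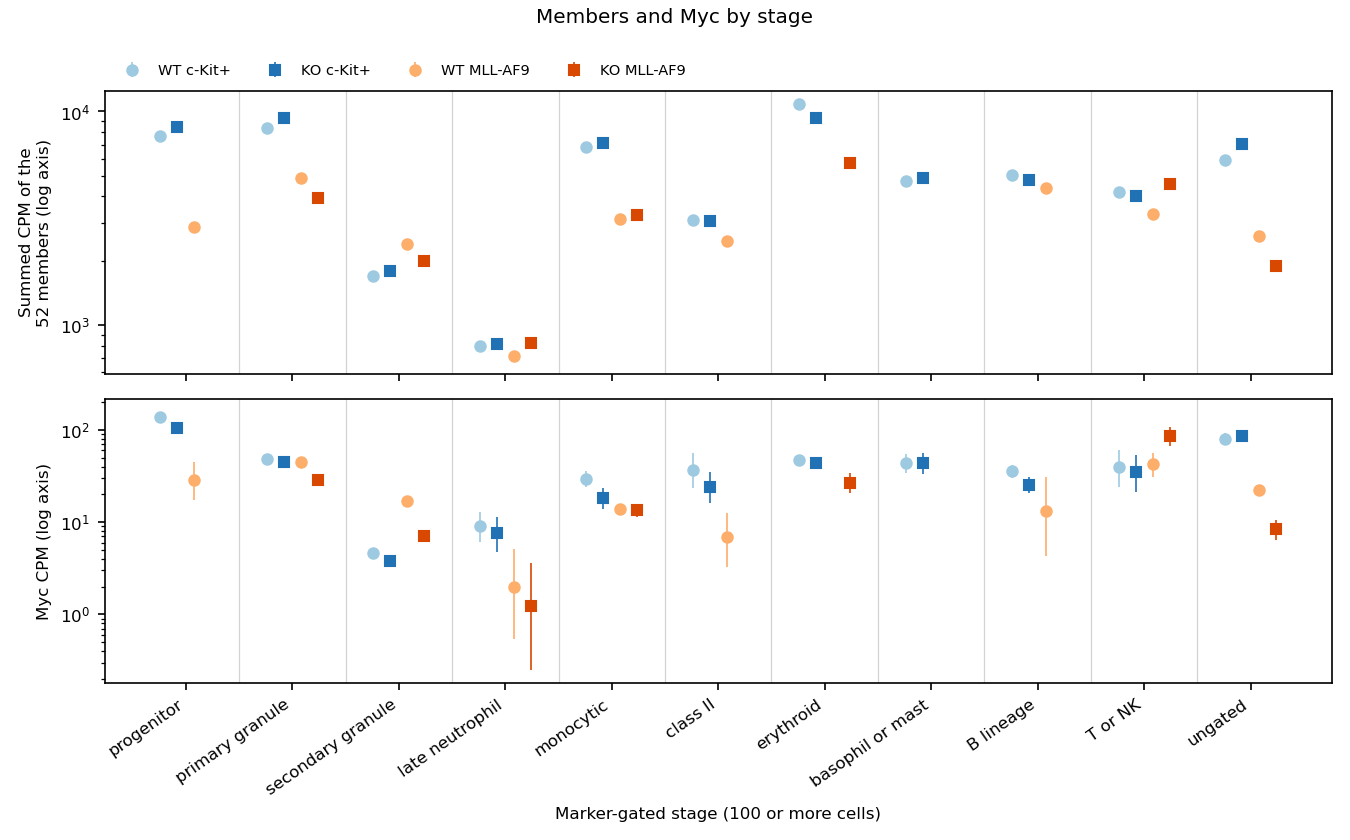
Summed CPM of the 52 members (upper panel) and CPM of Myc (lower panel), both on log axes, by marker-gated stage with 100 or more cells, 1 point per library with exact Poisson 95% intervals. Both are lower in late neutrophil than in primary granule cells in every library, at 798 against 8332 CPM for the members in WT c-Kit+ cells.

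Within stages, the ratio of the KO to the WT leukaemia library was taken for each stage. In primary granule cells 43 of 49 members were lower (69.5% of all features), with a median log2 ratio of -0.45 against -0.26 for all features, and Myc went from 45.4 to 28.8 CPM. The cells of this range were unlike in WT and KO: 52.6% and 26.2% were cycling, and secondary granule genes had medians of 602 and 2278 CPM. Without cycling cells 38 of 48 members were lower (68.4%), with -0.37 against -0.24. The part of the granule difference was not tested. In secondary granule cells 37 of 44 were lower (71%), with -0.39 against -0.31 and Myc from 16.8 to 7.05 CPM. In monocytic cells 33 of 46 were lower (68.7%), but the median was -0.17 against -0.24, the summed level was 1.04 times that of WT, and Myc was at 13.7 and 13.5 CPM. The median and the sum also differed in sign in late neutrophil cells, where 15 of 23 were lower (68.8%), the median was -0.27 and the sum ratio 1.15. A sum gives most weight to members with many UMIs and can rise through few of them. Monocytic sums went from 3138 to 3271 CPM, with Odc1 from 26.1 to 216 and Eif4a1 from 428 to 574. Late neutrophil sums went from 713 to 823 CPM, with Eif4a1 from 116 to 294. In the T or NK range 20 of 49 were lower (63.1%), with 1.39 times the summed level, a median of 0.03 (0.27 with size factors) and Myc from 42.2 to 84.9 CPM over 175 and 118 cells. Over these 5 stages 148 of 211 member and stage pairs were lower, against 68.1% of all feature and stage pairs, and 102 of 211 with size factors taken within each stage, against 50.8%. Both counts are near their background. With those factors 36 of 49 were lower at the primary granule stage (53.6%) and 19 of 46 at the monocytic stage (50.9%).

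Odc1 was higher in the KO leukaemia library at every one of these stages. It had 65.4 and 200 CPM in WT and KO primary granule cells, 35.5 and 97.1 in secondary granule cells, 26.1 and 216 in monocytic cells, 9.48 and 55.8 in late neutrophil cells and 48.0 and 602 in the T or NK range. The c-Kit+ libraries had 92.9 and 91.6 CPM in primary granule and 76.1 and 80.2 CPM in monocytic cells. Odc1 was also high in erythroid cells, but there it was not higher under the KO label. The WT leukaemia library had 683 CPM in 77 erythroid cells, and the KO leukaemia library 632 in 217. The c-Kit+ erythroid levels were 287 CPM for WT and 266 for KO. Haemoglobin transcripts, like Odc1 at the stages above, were higher in the KO leukaemia library. They were at 530 and 1215 CPM in WT and KO leukaemia monocytic cells. In primary granule cells they were at 516 and 1881 CPM, and in the T or NK range at 176 and 8347. The part of erythroid RNA in the Odc1 values was not tested. Rrp12 was likewise higher in KO primary granule (9.84 and 14.5 CPM), secondary granule (3.75 and 12.5 CPM) and monocytic cells (3.83 and 13.3 CPM). Srm had 42.9 and 21.8 CPM in WT and KO primary granule cells and 10.5 and 3.48 CPM in secondary granule cells, but 14.5 and 12.0 CPM in monocytic cells.

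In c-Kit+ cells the same ratio was taken for each stage. At the erythroid stage 48 of 50 members were lower in the KO library (64.5% of all features), with a median log2 ratio of -0.27 against -0.06, and 46 of 50 were lower with size factors (56.8%). Gnl3 went from 227 to 208 CPM there and Srm from 115 to 88.4 CPM. Of the other ribosome biogenesis genes 114 of 121 were lower too. The KO erythroid cells had more haemoglobin (59744 against 47134 CPM) and fewer UMIs per cell (median 8057.5 against 12097.5), whose part in the result was not tested. Without cycling cells, which made up 92.7% and 93.0% of the stage, 29 of 50 members were lower (51.8%), with a median of -0.06 against -0.01. Few cells remained there, and 16.1% of all features were lower by more than 1.5-fold, against 0.825% with cycling cells kept. These values are therefore less certain. In B lineage cells 39 of 49 were lower (46.1%), with a median of -0.14 against 0.02. With size factors 41 of 49 were lower there (57.0%), with -0.20 against -0.04. Without cycling B lineage cells 21 of 46 were lower (41.4%), with a median of 0.056, near the 0.062 of all features. The sum in those other cells was 2195 CPM in WT and 2328 in KO, against 8506 and 7668 in the cycling cells. In primary granule cells 17 of 49 were lower (54.6%), and the summed level was 1.12 times that of WT (95% interval 1.11 to 1.13), with Ncl at 685 and 879 CPM and Npm1 at 1588 and 1977 CPM. Myc at the erythroid stage was at 47.6 and 43.4 CPM, and in B lineage cells at 35.4 and 25.5 CPM.

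The relation to Myc was taken within a stage of a library, between cells with a Myc UMI and cells with none, the latter weighted to the depth of the former. In WT c-Kit+ primary granule cells, all 38 members at 25 CPM or more were higher in the 460 cells with a Myc UMI than in the 961 without, against 66.9% of all features, with a median log2 ratio of 0.34 against 0.08. In leukaemia the counts were 29 of 32 in WT primary granule cells (47.8%; 0.23 against -0.01) and 29 of 30 in KO primary granule cells (53.6%; 0.30 against 0.02). In secondary granule cells they were 23 of 23 (55.3%) in WT and 19 of 20 (54.6%) in KO leukaemia. Over 20 such contrasts, 623 of 678 member and contrast pairs (91.9%) were higher, against 58.7% of all feature and contrast pairs, with single contrasts from 46.5% to 82.1%. The exception was the progenitor range of the KO c-Kit+ library, with 22 of 40 higher (49.6%) and a median of 0.01, where the WT library had 36 of 41 (46.5%) and a median of 0.32. With cells thinned to 2000 UMIs these medians were 0.16 in KO and 0.0062 in WT, so the 2 libraries changed places.

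Members differed in this relation. Npm1, Ncl, Fbl and Eif4a1 were higher with a Myc UMI in 20 of 20 contrasts, with median log2 ratios of 0.37, 0.38, 0.46 and 0.28. Srm was higher in 17 of 18 with the largest median, 0.78, followed by Nop16 (0.75), Ndufaf4 (0.69), Ppan (0.69) and Gnl3 (0.65). In WT MLL-AF9 monocytic cells Srm was at 45.9 CPM with a Myc UMI and 16.2 CPM without, and Gnl3 at 59.6 and 24.7 CPM. Cbx3, a heterochromatin protein, had the smallest median among members in 5 or more contrasts, 0.04, and was higher in 15 of 20. Odc1 was higher in 13 of 20 with a median of 0.25, and in KO MLL-AF9 secondary granule cells it was at 101 CPM with and 115 CPM without a Myc UMI. Neighbouring gene groups were also higher with a Myc UMI. Ribosomal protein genes had medians of 0.11 in WT c-Kit+ primary granule and 0.57 in WT c-Kit+ secondary granule cells, and from 0.02 to 0.62 over the 20 contrasts. Of the other ribosome biogenesis genes 86 of 94 were higher in the first of these stages (median 0.22) and 65 of 65 in the second (0.63), where the members had 0.34 and 0.86. With cells thinned to 2000 UMIs and shallower cells left out, 10 of the 20 contrasts remained. In these, 280 of 334 member pairs (83.8%) were higher, against 58.1% of all feature pairs.

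**Figure D4:**
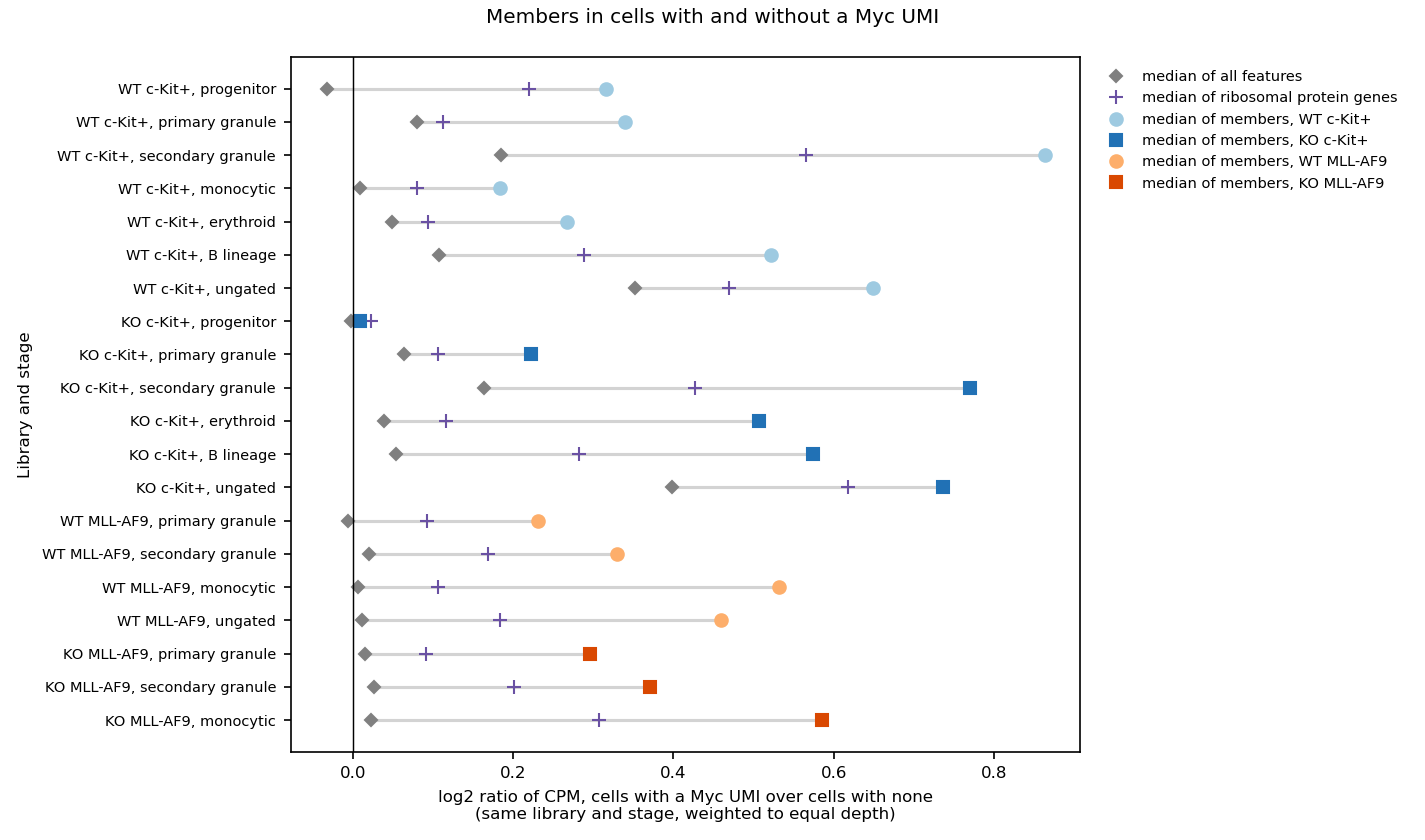
Median log2 ratio of CPM in cells with a Myc UMI over cells with none, by library and stage, for the members (coloured), all features (grey) and ribosomal protein genes (crosses). The members lie to the right of all features in each of the 20 rows, at 0.34 against 0.08 in WT c-Kit+ primary granule cells, and nearly meet them in KO c-Kit+ progenitor cells.

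Cell cycle transcripts went with the members too. In secondary granule cells, the cycling cells had 3.14, 3.04, 2.53 and 2.21 times the summed level of the other cells, and 37 of 37, 36 of 36, 45 of 45 and 39 of 41 members were higher (background 60.6%, 62%, 60.4% and 60.1%). In primary granule cells of c-Kit+ libraries the ratio was 1.03 in WT and 0.959 in KO, and Myc was lower in the cycling cells, at 43.4 against 75.9 CPM in WT. In primary granule cells of leukaemia the ratio was 1.505 in WT and 1.517 in KO. Leaving out all cycling cells, 13 of the 20 Myc contrasts remained. In these, 322 of 375 member and contrast pairs (85.9%) were higher with a Myc UMI, against 57.0% of all feature pairs. Over 34 stages of the 4 libraries with 100 or more cells, Spearman's rho of the summed members was 0.81 with Myc, 0.86 with ribosomal protein genes, 0.71 with cell cycle genes and 0.47 with the median UMIs per cell. These points share libraries and depth, and the coefficients are descriptions.

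The other ribosome biogenesis genes, a list of 121, are given for scale. In KO over WT leukaemia 95 of 116 tested were lower, with a median log2 ratio of -0.40, close to the -0.38 of all features, and 65 of 116 were lower with size factors. Nop10, a box H/ACA protein, went from 275 to 127 CPM, Noc3l from 9.06 to 3.77 and Nol8 from 19.2 to 8.79. Zfp622, a pre-60S export factor, went from 26.7 to 98.3 CPM, Abt1 from 16.1 to 40.1 and Riok2 from 18.5 to 37.4. In c-Kit+ cells 43 of 120 were lower in KO (median 0.03), from -0.19 for Mdn1, -0.16 for Spata5 and -0.15 for Nol6 to 0.30 for Nhp2, 0.27 for Surf6 and 0.23 for Polr1g. In leukaemia over c-Kit+ cells 83 of 119 were lower in WT (-0.22) and 98 of 117 in KO (-0.59). In WT the ends were Tma16 (-1.19), Brix1 (-0.98) and Rrp1b (-0.91), and Krr1 (1.21), Ttf1 (0.87) and Taf1b (0.85). In KO they were Nop10 (-1.79), Nhp2 (-1.70) and Ftsj3 (-1.56), and Zfp622 (1.60), Abt1 (0.88) and Krr1 (0.88).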

How the data were processed

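Droplet single-cell libraries were prepared from 4 samples of mouse bone marrow, 1 library per group. The authors deposited UMI counts per gene and cell barcode, made with Cell Ranger 7.1.0 on the mouse genome build mm10 per the submitters' processing notes, and the gene annotation is not given in the sources used here. Cells with at least 500 genes, 1000 UMIs and at most 10% mitochondrial UMIs were kept, and doublets (372 to 578 Scrublet calls per library) were kept except in an alternative. Counts were summed per library or stage and given as CPM, counts per 1e+06 UMIs, with exact Poisson 95% intervals. Ratios have conditional binomial intervals, and log2 ratios used a pseudocount of 1 CPM on genes averaging at least 5 CPM (25 CPM in the Myc contrast), so they understate differences of low genes. The summing and ratio steps were tested on simulated data. A stage is the range of cells above a marker floor with at least 3 marker UMIs, and the cell cycle floor is a fraction of 0.002 of a cell's UMIs in 25 cell cycle genes. Myc contrasts needed 50 cells with a Myc UMI, and cells without one were weighted over 10 depth classes. With 1 library per group no test was made.

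Members and lists were chosen with earlier results of these data known. Named are 13 members and Myc in all libraries, the 6 highest and 6 lowest members of each comparison and the 3 highest and 3 lowest other ribosome biogenesis genes, and further members were named after their values were seen. Alternatives covered cell filters, doublets, scaling, pseudocount, level floor, cell weight, depth, stage and cell cycle. Gene positions were read from GENCODE M21 and promoters from RefSeq, both on GRCm38. Python 3.11.15, scipy 1.17.1 and scanpy 1.11.5 were used.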

Additional observations from a re-analysis of the deposited data

Results flagged for a closer look

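For 10 of the 46 members examined (21.7%), the library labelled KO was lower than the WT library by more than 1.5-fold in MLL-AF9 cells. This was on the library-sum scale, and the KO library was higher in c-Kit+ cells. The 95% interval of the c-Kit+ ratio lay above 1, and both directions were kept with size factors. The same pattern, interval included, held for 7.49% of all 8953 features examined. The interval is narrower for genes with more UMIs, so these shares also depend on level. With size factors the MLL-AF9 log2 ratios were -0.52 for Exosc5, -0.55 for Nme1, -0.52 for Tcof1, -0.36 for Ran and -0.27 for Nip7, short of 1.5-fold. Under equal stage weights 5 of 47 members were lower past 1.5-fold in KO MLL-AF9 cells (25.6% of all features). In KO c-Kit+ cells 32 of 49 were then lower (52.1%). By stage, 48 of 50 members were lower in KO c-Kit+ erythroid cells (64.5%) and 17 of 49 in primary granule cells (54.6%). With 1 library per group the difference between the cell populations was not tested, nor was the part of stage make-up in it. The c-Kit+ side was small, with log2 ratios from 0.08 for Pa2g4 to 0.24 for Exosc5. The MLL-AF9 log2 ratio minus the c-Kit+ log2 ratio was -1.25 for Nop16, -1.24 for Srm and -1.19 for Dctpp1. It was -1.12 for Phb, -1.11 for Exosc5, -1.09 for Nme1 and -1.03 for Pa2g4. It was -0.98 for Tcof1, -0.80 for Ran and -0.76 for Nip7. All features shifted by -0.38 in MLL-AF9 and by -0.01 in c-Kit+ cells on the same scale, and Phb rests on under 10 CPM in each library.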

How the results depend on the processing

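No paired analysis was possible because each group has 1 library. Shares of all features stand in brackets. The count of 41 of 46 members lower in KO leukaemia (74.6%) was 36 with size factors (53.6%) and 32 of 47 with equal stage weights (69.0%). It was 20 of 22 at 25 CPM or more (71.7%). Under the other settings it was 39 to 41 of 46 (74.3% to 75.3%) or 45 of 50 (73.2%). The count past 1.5-fold, 17 (35.1%), was 8 with size factors (15.9%) and 5 with equal stage weights (25.6%). It was 8 at 25 CPM or more (28.8%) and 13 to 25 otherwise (27.3% to 39.1%). In c-Kit+ cells the 21 of 49 lower in KO (52.4%) became 8 of 29 at 25 CPM or more (53.0%) and 6 of 47 with equal weight per cell (38.8%). They became 32 of 49 with equal stage weights (52.1%) and 8 of 46 without cycling cells (39.2%). For WT leukaemia over c-Kit+ cells, 40 of 49 (33.4%) became 21 of 27 at 25 CPM or more (33.2%). They became 26 of 47 with equal cell weight (28.9%) and 19 of 46 without cycling cells (24.6%). The count past 1.5-fold became 13 (9.03%), 8 (9.94%) and 4 (9.85%), and 10 with thinned cells (9.35%). In KO it was 22 of 25 lower (47.1%) and 21 past 1.5-fold (21.9%) at 25 CPM or more, and 16 past it without cycling cells (19.1%). Pairs higher with a Myc UMI were 389 of 431 (56.5%) over 12 contrasts with 2 or more Myc UMIs. They were 322 of 375 (57.0%) over 13 contrasts without cycling cells and 280 of 334 (58.1%) over 10 with thinned cells. The main count used 20 contrasts. Reversed were Rcl1 in KO over WT leukaemia with equal stage weights (0.35) and, without cycling cells, Cbx3 (0.063), Mrto4 (0.22), Nolc1 (0.0246), Nop16 (0.0413) and Slc19a1 (0.11) in WT and Tmem97 (0.58) in KO leukaemia over c-Kit+ cells. The cause was not tested. Stricter level floors test fewer genes. Depth limits genes near 5 CPM and stages of few cells: Srm in late neutrophil cells of WT leukaemia rests on 1 UMI.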

Other observations

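Other genes of the MYC network differed in level between the leukaemia libraries. Mxd1, which encodes a MAX partner that opposes MYC, was at 152 CPM in WT c-Kit+, 147 in KO c-Kit+, 90.5 in WT MLL-AF9 and 233 in KO MLL-AF9 cells, a log2 ratio of 1.35 in KO over WT leukaemia. Max was at 89.0, 80.4, 92.3 and 127 CPM in the same order. Mxi1, another MAX partner, was at 98.6, 86.9, 206 and 273 CPM, and Mga was at 42.3, 41.6, 73.3 and 49.7 CPM. Mnt was at 17.9, 18.6, 16.2 and 23.2 CPM. The secondary granule range held 28.9% of WT and 55.8% of KO leukaemia cells, and its part in these values was not tested.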
